A study of Mus musculus with 6 samples.

Results

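Secondary (specific) and tertiary (gelatinase) granule genes of neutrophils were described in mouse bone marrow cells that carried mutants of CSF3R, a receptor whose ligand is granulocyte colony-stimulating factor. The members were the rows of the deposited gene table whose symbol was Ltf, Camp, Ngp, Lcn2, Cd177, Mmp8, Mmp9, Mmp25, Retnlg or Fcnb, which are 10 of 23417 rows with a gene symbol. All 10 reached 1 FPKM (fragments scaled to transcript length and to depth) in at least 2 libraries and so entered the 11188 genes tested. Mmp9, Mmp25 and Retnlg did so only through T618I-containing libraries, since fewer than 2 libraries without T618I reached 1 FPKM, so their being tested at all already depended on their level with T618I. For these genes, a share of tested genes set beside a count of members higher with T618I is therefore no measure. Mmp25 reached 1 FPKM only in the double mutants, so the same holds for it in counts of members higher there than in T618I. Kit-positive cells of C57BL/6 wild-type bone marrow were transduced with retrovirus, sorted and grown overnight with mSCF, IL-3, IL-6 and FLT3. The groups were constructs that contain T618I (alone or as T618I/Q741 or T618I/W791; n = 3 libraries), truncation constructs (W791 and Q741; n = 2) and the vector control (n = 1). T618I is the membrane-proximal change, and Q741 and W791 truncate the tail of the receptor. The design text of the series names proximal and double mutants as leukemogenic and truncations as non-leukemogenic. Each construct was sequenced once, none carried the unmutated receptor, and the labels give no promoter for the transgene and do not say how many animals gave the cells, so any spread or p-value here is between constructs.

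Neutrophils fill their granules in sequence as they mature: primary (azurophil) granules at the promyelocyte stage, then specific granules in myelocytes and metamyelocytes, then gelatinase granules in band cells. C/EBP epsilon, encoded by Cebpe, is needed for specific granule genes such as those of lactoferrin and cathelicidin. Specific granules carry iron-binding and antimicrobial proteins, and gelatinase granules carry enzymes that cut extracellular matrix. Ltf, Camp, Ngp, Lcn2, Cd177 and Mmp8 were taken as specific granule genes and Mmp9 and Mmp25 as gelatinase granule genes. Retnlg and Fcnb, whose place in mouse granules is less settled, were left outside both classes.

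The deposited columns summed to between 439505 and 492025 FPKM. Depth is not stated in the table. Step sizes of low values in single-transcript genes put it at about 19000000 to 24200000 fragments for the mutants and about 41200000 for vector. Kit, the gene of the surface marker used to isolate the cells, was at 12.6 to 32.6 FPKM in T618I-containing libraries and at 23.3 to 34.5 in the others. Csf3r was at 38.8 to 95.9 FPKM and at 52.8 to 56.7; the labels do not say which species the receptor in the constructs comes from, so these values do not check the labels. Genes of several lineages were present in every library: the monocyte gene Csf1r (87.3 FPKM or more), the mast cell gene Cpa3 (295 or more) and the primary granule gene Mpo (553 or more). In bulk RNA, fewer cells of a type and less RNA per cell cannot be told apart.

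Camp, Ngp and Ltf lie within 1.20 Mb of each other on chromosome 9 (GRCm38, which is mm10; GENCODE M21 coordinates). Camp spans 109847379 to 109849617 on the minus strand, Ngp 110419747 to 110423012 and Ltf 111019271 to 111042767 on the plus strand. Mmp8 is on the same chromosome at 7558456 to 7568485. Fcnb (28076378 to 28084885), Lcn2 (32384633 to 32388252) and Mmp9 (164940780 to 164955850) are on chromosome 2. Cd177 is on chromosome 7 (24743983 to 24760311), Retnlg on chromosome 16 (48872621 to 48874496) and Mmp25 on chromosome 17 (23628311 to 23645277). Mmp25 overlaps 2 genes of the other strand in that annotation. The libraries were stranded, but the sources used here do not say whether counting used strand, so its reads cannot be told apart from theirs.

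RefSeq (GRCm38.p6) promoter sequences were given for 9 members, all but Mmp9. Below are the 250 bases before the RefSeq start of Ltf, which T618I alone did not place above vector, and of Cd177 and Retnlg, which it placed 2-fold or more above. The RefSeq start of Ltf lies inside the GENCODE span given above, as do those of Camp, Ngp, Lcn2, Fcnb and Mmp25. The Lcn2 window, counted below, lies wholly inside its span. Capitals mark matches to TTNCNNAA, a C/EBP-like motif, read on both strands (TTNNGNAA on the other), and each line runs 5′ to 3′ on the gene's strand.
Ltf, chr9:111019042-111019291, plus strand: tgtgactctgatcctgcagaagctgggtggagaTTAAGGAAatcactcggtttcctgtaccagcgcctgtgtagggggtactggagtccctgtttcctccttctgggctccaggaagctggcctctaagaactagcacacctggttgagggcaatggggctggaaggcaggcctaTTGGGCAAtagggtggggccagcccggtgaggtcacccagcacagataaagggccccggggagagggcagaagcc
Cd177, chr7:24760312-24760561, minus strand: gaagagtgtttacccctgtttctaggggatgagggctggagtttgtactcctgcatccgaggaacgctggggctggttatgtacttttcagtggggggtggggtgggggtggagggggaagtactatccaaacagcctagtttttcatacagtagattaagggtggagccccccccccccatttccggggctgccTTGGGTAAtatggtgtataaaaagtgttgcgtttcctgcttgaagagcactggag
Retnlg, chr16:48872358-48872607, plus strand: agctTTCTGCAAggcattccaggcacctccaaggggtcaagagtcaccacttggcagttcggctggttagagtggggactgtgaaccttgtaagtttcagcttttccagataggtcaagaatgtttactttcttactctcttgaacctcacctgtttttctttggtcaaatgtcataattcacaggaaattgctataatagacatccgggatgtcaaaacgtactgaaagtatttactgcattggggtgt
Ltf holds 2 matches, which open 217 and 75 bases before the RefSeq start. Cd177 holds 1 at 55 bases and Retnlg 1 at 246 bases. At least 1 match stood in 7 of the 9 member windows, against 36.8% of 32851 mouse promoter windows of the same length. The PU.1-like letters GAGGAA (on the other strand, TTCCTC) stood in 5 of 9, against 23.3% of all windows, and the GATA-like letters AGATAA (on the other strand, TTATCT) in 1 of 9, against 9.99%. No C/EBP-like match in the members overlapped either of the other motifs. Such matches describe letters and are not binding sites.

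The iron-binding protein gene Ltf (lactoferrin) stood at 23.3 FPKM in T618I, 320.0 in T618I/Q741 and 95.8 in T618I/W791 cells, against 43.7 in W791, 28.7 in Q741 and 24.2 in vector cells. Only the double mutants were above the libraries without T618I. Ngp, a granule protein of the cathelicidin and cystatin group, was at 251 FPKM in T618I, 2988 in T618I/Q741 and 704 in T618I/W791 cells, against 244 in W791, 206 in Q741 and 151 in vector cells. All 3 T618I-containing libraries were above the others, but T618I alone only just cleared W791. Camp, which encodes the precursor of the antimicrobial peptide cathelicidin, was at 4.25 FPKM in T618I, 60.5 in T618I/Q741 and 12.0 in T618I/W791 cells, against 14.3 in W791, 10.5 in Q741 and 9.81 in vector cells. For Camp, T618I was the lowest library of the 6, T618I/Q741 stood far above the rest and T618I/W791 lay among the libraries without T618I.

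Lcn2, which encodes the siderophore-binding protein lipocalin 2, was at 628 FPKM in T618I, 1339 in T618I/Q741 and 787 in T618I/W791 cells, against 155 in W791, 141 in Q741 and 109 in vector cells. Every T618I-containing library was well above every library without it. Cd177, which encodes a surface glycoprotein of neutrophils that is stored in specific granules, was at 24.0 FPKM in T618I, 89.0 in T618I/Q741 and 45.7 in T618I/W791 cells, against 3.20 in W791, 2.33 in Q741 and 2.72 in vector cells. Again the groups did not overlap. Mmp8, neutrophil collagenase, was at 573 FPKM in T618I, 1344 in T618I/Q741 and 560.0 in T618I/W791 cells, against 393 in W791, 424 in Q741 and 245 in vector cells. Its groups did not overlap either, but they were closer together.

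Mmp9, which encodes gelatinase B and gives the tertiary granules their name, was at 10.7 FPKM in T618I, 54.6 in T618I/Q741 and 15.1 in T618I/W791 cells, against 1.21 in W791, 0.296 in Q741 and 0.591 in vector cells. The groups did not overlap. Mmp25, which encodes the membrane-anchored protease leukolysin, was at 0.986 FPKM in T618I, 4.41 in T618I/Q741 and 1.53 in T618I/W791 cells, against 0.440 in W791, 0.422 in Q741 and 0.588 in vector cells. It was the weakest member in each T618I-containing library.

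Retnlg, which encodes a resistin-like secreted protein of mouse neutrophils, was at 25.3 FPKM in T618I, 107 in T618I/Q741 and 14.7 in T618I/W791 cells, against 0.838 in W791, 0.102 in Q741 and 0.294 in vector cells. The groups did not overlap; the Q741 value lies under the 0.258 FPKM that 3 fragments of its annotated transcript would give, so differences that include it depend on the 1 FPKM added before taking logs. Fcnb, which encodes the lectin ficolin B, was at 14.5 FPKM in T618I, 33.1 in T618I/Q741 and 14.0 in T618I/W791 cells, against 16.1 in W791, 15.7 in Q741 and 12.9 in vector cells. T618I/Q741 alone stood apart for Fcnb.

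**Figure D1:**
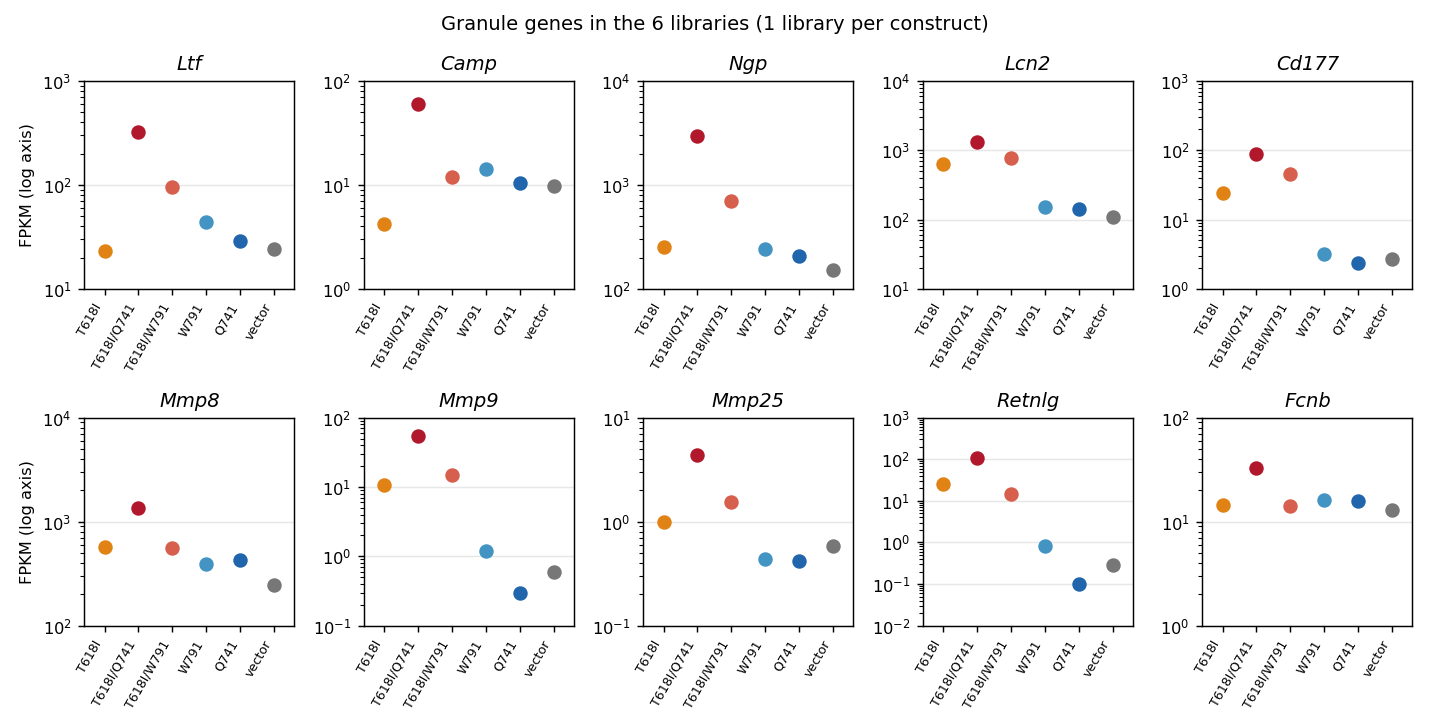
FPKM of each granule gene (log axis, own scale per panel) in the 6 libraries, 1 point per construct. T618I/Q741 is the highest point in all 10 panels; T618I is the lowest for Ltf (23.3 FPKM) and Camp (4.25 FPKM).

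T618I/Q741 was the highest of the 6 libraries for 10 of 10 members, against 18.8% of all tested genes. For Mmp9, Mmp25 and Retnlg that share is no measure, because the filter let them in through T618I-containing libraries. The order T618I/Q741 above T618I/W791 above T618I held for 7 of 10 members, against 6.35% of tested genes. That share is no measure for Mmp25, which the filter let in through the double mutants alone. Mmp8, Retnlg and Fcnb were the exceptions, with T618I above T618I/W791. Together the 10 genes took up 0.333% of all FPKM with T618I, 1.29% in T618I/Q741 and 0.468% in T618I/W791 cells, against 0.193% in W791, 0.189% in Q741 and 0.121% in vector cells.

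The first question was how libraries with T618I differed from their partners: vector for T618I alone, and the same truncation for each double mutant. Vector, going by its label, carries no introduced CSF3R. The vector pair thus differs by the receptor as well as by T618I, and these cannot be told apart. Each pair holds 1 library on each side, so there is no test, and differences are of log2(FPKM + 1), a scale that understates low genes. Against vector, T618I was higher by 2-fold or more for 5 of 10 members (2.73% of tested genes): Retnlg by 4.35, Mmp9 by 2.88, Cd177 by 2.75, Lcn2 by 2.52 and Mmp8 by 1.22. Ngp (0.72), Mmp25 (0.32), Fcnb (0.16) and Ltf (-0.05) stayed within 2-fold, so that 8 of 10 were above 0 (38.3% of tested genes). Camp was lower by 2-fold or more, at -1.04, as were 1.27% of tested genes. With median-ratio scaling the difference was -0.98 for Camp, inside the threshold, and 0.01 for Ltf. The 6 specific granule genes ran from -1.04 to 2.75, with a median of 0.97, against -0.07 over all tested genes.

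With the Q741 tail, T618I/Q741 was 2-fold or more above Q741 for 10 of 10 members; 4.74% of tested genes were 2-fold higher, 1.89% 2-fold lower and 34.5% above 0. The differences ran from 1.03 for Fcnb, 1.66 for Mmp8 and 1.93 for Mmp25 up to 4.76 for Cd177, 5.42 for Mmp9 and 6.62 for Retnlg, whose Q741 value was under the level of 3 fragments. Ltf (3.43), Ngp (3.85), Camp (2.42), Mmp25 and Fcnb passed 2-fold here but not with T618I over vector. With single libraries that difference has no test, and the vector pair also differs by the introduced receptor. The median was 3.34 over the 10 members and -0.16 over all tested genes.

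With the W791 tail, T618I/W791 was 2-fold or more above W791 for 6 of 10 members and lower by that much for 0; the shares of tested genes were 2.34% and 4.26%. These were Cd177 (3.47), Retnlg (3.09), Mmp9 (2.87), Lcn2 (2.34), Ngp (1.52) and Ltf (1.12). Mmp25 (0.82), Mmp8 (0.51), Fcnb (-0.18) and Camp (-0.24) stayed within 2-fold on this scale, so that 8 of 10 were above 0 (49.7% of tested genes). As a ratio of FPKM, Mmp25 was 3.49 times as high in T618I/W791 as in W791 cells, at 1.53 and 0.440 FPKM. With a pseudocount of 0.1, 7 members were 2-fold or more higher. The genes that were 2-fold or more higher with T618I in all 3 pairs, the vector pair included, were Lcn2, Cd177, Mmp9 and Retnlg. These are 4 of 10 members, against 1.04% of tested genes. For Mmp9 and Retnlg that share is no measure, because the filter let them in through their T618I-containing libraries.

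**Figure D2:**
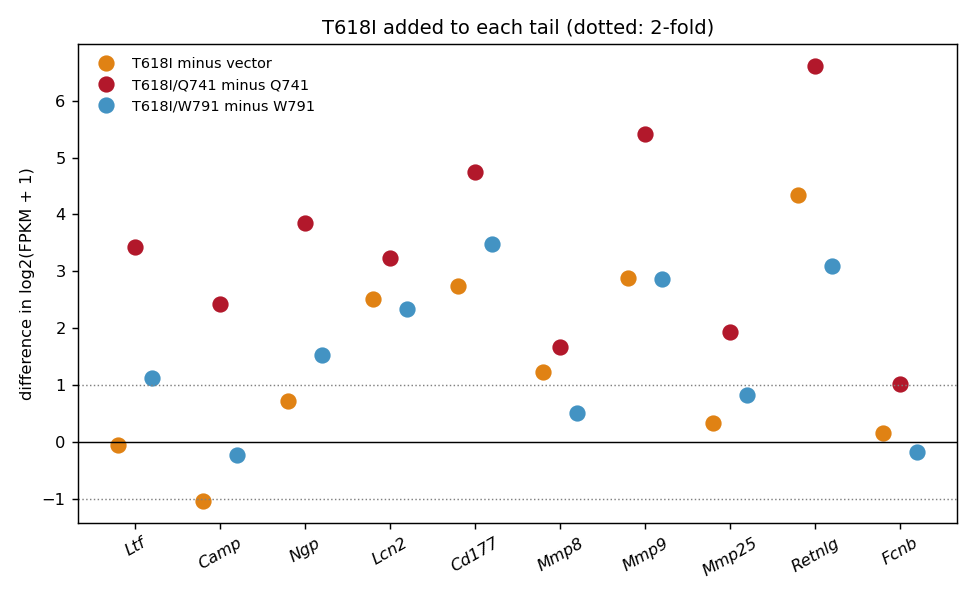
Difference in log2(FPKM + 1) for each member when T618I was added to vector, Q741 or W791, 1 pair of libraries per point; dotted lines mark 2-fold. Lcn2, Cd177, Mmp9 and Retnlg lie above 2-fold in every pair, and Camp runs from -1.04 with vector to 2.42 with Q741. The vector pair also differs by the introduced receptor.

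The next question was what a truncation added to T618I. These differences share the T618I library with the first pair, so a low T618I value enters both. T618I/Q741 was 2-fold or more above T618I for 10 of 10 members. Of tested genes, 1.99% were 2-fold higher, 1.47% 2-fold lower and 35.3% above 0. For Mmp25 these shares are no measure, because the filter let it in through the double mutants alone. Ltf (3.72), Ngp (3.57) and Camp (3.55) led, and Mmp9 (2.25), Retnlg (2.04), Cd177 (1.85) and Mmp25 (1.45) followed. Mmp8 (1.23), Fcnb (1.14) and Lcn2 (1.09) were just past the threshold. By class the median was 2.70 for the 6 specific granule genes and 1.85 for the 2 gelatinase granule genes, against -0.13 over all tested genes.

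T618I/W791 was 2-fold or more above T618I for 3 of 10 members and lower for 0 (1.0% and 3.09% of tested genes), and the 3 were the same chromosome 9 genes: Ltf (1.995), Ngp (1.49) and Camp (1.31). Cd177 (0.90), Mmp9 (0.46), Mmp25 (0.35), Lcn2 (0.33), Mmp8 (-0.03), Fcnb (-0.04) and Retnlg (-0.75) stayed within 2-fold. Of the members, 7 of 10 were above 0 (52.5% of tested genes, again no measure for Mmp25). Set directly against each other, T618I/Q741 was above T618I/W791 for 10 of 10 members (41.9% of tested genes) and by 2-fold or more for 8 (5.88%; 7.58% were 2-fold lower). Retnlg (2.79), Camp (2.25) and Ngp (2.08) differed most, while Cd177 (0.95) and Lcn2 (0.77) stayed within 2-fold. Cd177 passed 2-fold with median-ratio scaling (1.12).

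**Figure D3:**
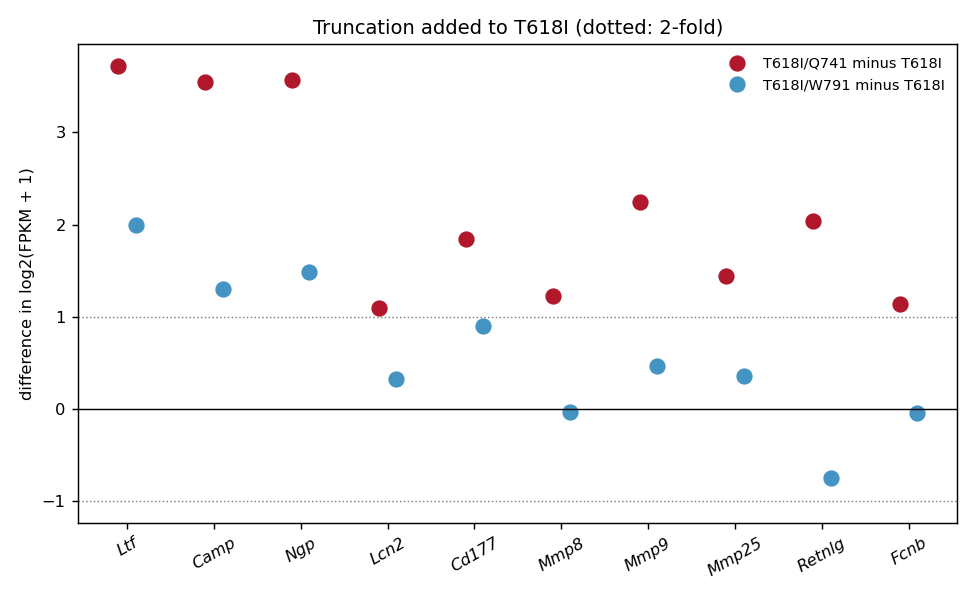
Difference in log2(FPKM + 1) for each member when Q741 or W791 was added to T618I, 1 pair of libraries per point; dotted lines mark 2-fold. All 10 members pass 2-fold with Q741; with W791 only Ltf (1.995), Camp (1.31) and Ngp (1.49) do.

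Without T618I, the truncations differed from vector by less than 2-fold on the log2(FPKM + 1) scale. No member differed by 2-fold in either direction between Q741 and vector (0.152% of tested genes were 2-fold higher and 0.822% lower) or between W791 and vector (0.268% and 0.304%). W791 was above vector for 9 of 10 members (47.5% of tested genes), with a median of 0.50, against -0.01 over all tested genes. Ltf (0.83), Ngp (0.69) and Mmp8 (0.68) were the furthest, each past the 99th percentile of all tested differences, and Retnlg, Camp, Lcn2 and Mmp9 were past the 98th. As ratios of FPKM, Retnlg was 2.85 times and Mmp9 2.05 times as high with W791 as with vector, at W791 levels of 0.838 and 1.21 FPKM. Q741 was above vector for 6 of 10 (44.1% of tested genes), with a median of 0.16, against -0.02 over all tested genes, and Mmp8 the furthest, at 0.78. The ratios of FPKM for Retnlg and Mmp9 went the other way with Q741, at 0.346 and 0.501 times vector, at Q741 levels of 0.102 and 0.296 FPKM. Retnlg rested on about 9.45 fragments in W791, 7.18 in vector and 1.18 in Q741 cells. Its ratios and percentile here therefore cannot give a direction.

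The order of the members within a library shifted with T618I. Since FPKM are per length, levels can be set side by side. In the libraries without T618I the order began Mmp8, Ngp, Lcn2 and Ltf. With T618I it began Lcn2, Mmp8, Ngp and Retnlg, with T618I/Q741 Ngp, Mmp8, Lcn2 and Ltf, and with T618I/W791 Lcn2, Ngp, Mmp8 and Ltf. Mmp9 stood at 46.0% of the Ltf level with T618I, 17.1% in T618I/Q741 and 15.8% in T618I/W791 cells, against 2.77% in W791, 1.03% in Q741 and 2.44% in vector cells. Lcn2 made up 40.4% of the summed FPKM of the 10 genes with T618I, 21.1% in T618I/Q741 and 35.0% in T618I/W791 cells, against 17.7% in W791, 17.0% in Q741 and 19.5% in vector cells. Ngp made up 16.1% in T618I, 47.1% in T618I/Q741 and 31.3% in T618I/W791 cells, against 28.0% in W791, 24.8% in Q741 and 27.2% in vector cells.

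Between the mutant classes that the design contrasts, no member passed the test. Lcn2 (limma adjusted p = 0.0148) and Cd177 (0.0299) passed when the tail was a block. That fit pairs vector with T618I and sets T618I present against absent over all 6 libraries, so it does not compare these classes. T618I-containing constructs (n = 3) were set against truncations (n = 2) with limma over all tested genes, and 0 of 10 members had an adjusted p below 0.05 (0.179% of tested genes were called higher and 0.0179% lower); 4 of 10 had an unadjusted p below 0.05, all higher (4.16% of tested genes were higher at that level and 4.86% lower). For 7 of 10 members every T618I-containing library was above every truncation library (9.22% of tested genes), and for 0 of 10 below (21.1%). The 7 include Mmp9, Mmp25 and Retnlg, for which that share is no measure, because the filter let them in through T618I-containing libraries. Mmp9 and Retnlg are also among the 4 with an unadjusted p below 0.05. Lcn2 averaged 918 ± 373 FPKM in T618I-containing cells and 148 ± 9.65 in truncation cells (SD, n = 3 and n = 2), a log2 difference of 2.55 ± 0.33 (SE; limma adjusted p = 0.111). Cd177 averaged 52.9 ± 33.1 FPKM in T618I-containing cells and 2.77 ± 0.618 in truncation cells (3.66 ± 0.53, limma adjusted p = 0.146). Retnlg (4.64 ± 0.82, limma adjusted p = 0.223) and Mmp9 (3.69 ± 0.69, limma adjusted p = 0.240) had larger differences than Lcn2, with wider errors. For Ltf the difference was 1.32 with a 95% interval of -1.28 to 3.92, for Ngp 1.85 (-0.63 to 4.32) and for Camp 0.28 (-2.21 to 2.77). For Mmp8 it was 0.89 (-0.14 to 1.92), for Mmp25 1.07 (-0.02 to 2.17) and for Fcnb 0.24 (-0.73 to 1.20). Adjusted p for these 6 lay between 0.564 and 0.995. Single libraries moved them: without T618I/Q741 the difference was 0.41 for Ltf, 0.90 for Ngp, 0.47 for Mmp8 and 0.65 for Mmp25, and without T618I it was 2.27 for Ltf and 1.09 for Camp.

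Lcn2 and Cd177 rose when vector was counted with the truncations as T618I absent (3 against 3), a comparison that shares 5 libraries with the class comparison. Mmp9 and Retnlg passed as well, among genes that the filter let in only through libraries with T618I. Limma called 4 of 10 members higher (0.670% of tested genes) and 0 lower (0.197%); 7 of 10 had an unadjusted p below 0.05 (6.08% were higher at that level and 9.80% lower). The groups did not overlap for 7 of 10, all higher (8.04% of tested genes were higher in this way and 18.2% lower). Mmp9, Mmp25 and Retnlg are in both counts of 7, and for them these shares are no measure because of how the filter let them in. Retnlg averaged 49.0 ± 50.6 FPKM in cells with T618I and 0.411 ± 0.382 in cells without it (SD, n = 3 each; 4.69 ± 0.68, limma adjusted p = 0.0407). Mmp9 averaged 26.8 ± 24.2 FPKM in cells with T618I and 0.699 ± 0.467 in cells without it (3.72 ± 0.57, limma adjusted p = 0.0494). Limma adjusted p was 0.0172 for Lcn2 (2.70 ± 0.29) and 0.0223 for Cd177 (3.66 ± 0.43). The others did not pass: Ngp at 2.03 ± 0.83 (adjusted p = 0.306), Ltf at 1.498 ± 0.87 (0.477), Mmp8 at 1.13 ± 0.39 (0.223), Mmp25 at 1.02 ± 0.36 (0.237), Camp at 0.38 ± 0.82 (0.905) and Fcnb at 0.33 ± 0.32 (0.709). Without the filter on low values Lcn2 alone passed (limma adjusted p = 0.0479), and Cd177 (0.0542), Retnlg (0.0868) and Mmp9 (0.0938) did not. With the tail as a block, Mmp9 (limma adjusted p = 0.0538) and Retnlg (0.0504) were lost, as they were with a pseudocount of 5 (0.104 and 0.0991). Mmp9 was also lost with median-ratio scaling (limma adjusted p = 0.0570), a filter of 5 FPKM (0.0519) and no mean-variance trend (0.0511). The Retnlg difference was 6.35 with a pseudocount of 0.1 and 2.91 with 5.

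**Figure D4:**
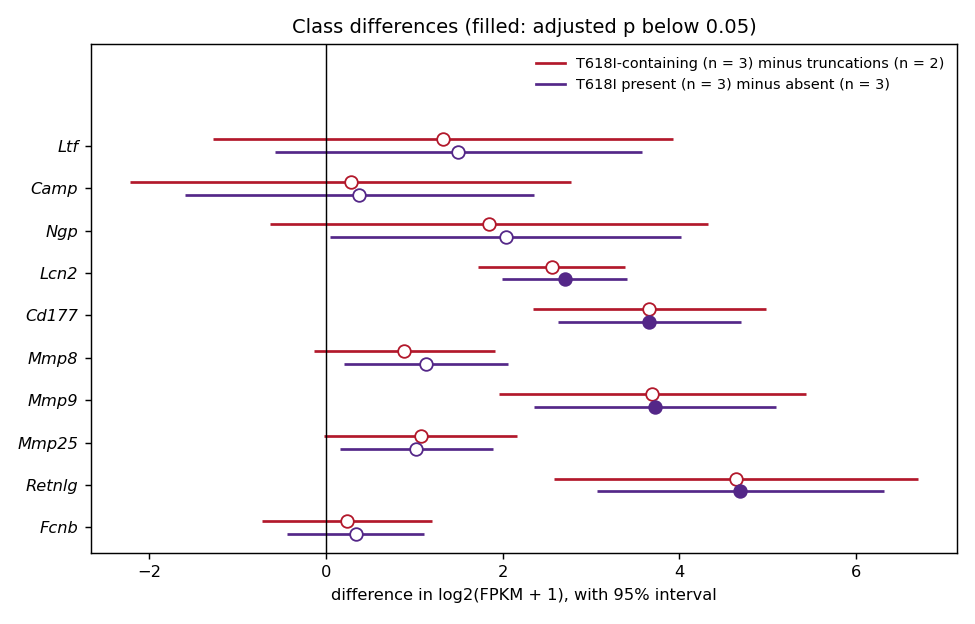
Limma differences in log2(FPKM + 1) with 95% intervals for T618I-containing minus truncation constructs and for T618I present minus absent; filled points have adjusted p below 0.05. Lcn2, Cd177, Mmp9 and Retnlg are filled in the second comparison, and the intervals of Ltf and Camp include 0 in both.

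Without T618I/Q741 the median log2 difference of the members between the mutant classes was 0.78 rather than 1.58 (all tested genes, -0.02 and -0.07), Lcn2 alone passed (2.24, limma adjusted p = 0.0350), and Camp (-0.69) and Fcnb (-0.15) turned below 0. In the 3 against 3 comparison 3 or 4 members stayed called without any single T618I-containing library, but all 4 calls were lost when W791, Q741 or vector was left out, with limma adjusted p for Lcn2 of 0.0711 without W791, 0.105 without Q741 and 0.111 without vector.

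Other genes were taken from a list of 20 drawn up for specific and gelatinase granules, of which 19 were in the table and 17 tested. Not all of them encode proteins stored in these granules, Padi4 and Pram1 being 2 that do not. Limma called 0 of 17 in the comparison of the mutant classes and 0 of 17 in the 3 against 3 comparison, with median log2 differences of 0.37 and 0.39 (all tested genes, -0.07 and -0.08). At an unadjusted p below 0.05, 5 were higher and 0 lower between the classes (4.16% and 4.86% of tested genes). In the 3 against 3 comparison 6 were higher and 1 lower (6.08% and 9.80%). At 2-fold, 5 of 17 were higher on adding T618I to vector (2.73% of tested genes), 7 of 17 on adding it to Q741 (4.74%) and 4 of 17 on adding it to W791 (2.34%). Each time 0 were lower (1.27%, 1.89% and 4.26% of tested genes). Pram1 and Padi4 are among the higher genes in each of these counts. Pglyrp1, which encodes a peptidoglycan-recognition protein of these granules, was at 131 FPKM in T618I, 395 in T618I/Q741 and 149 in T618I/W791 cells, against 53.9 in W791, 40.6 in Q741 and 41.2 in vector cells. Padi4, the enzyme that citrullinates histones, was at 32.8 FPKM in T618I, 95.2 in T618I/Q741 and 39.4 in T618I/W791 cells, against 14.1 in W791, 11.8 in Q741 and 13.9 in vector cells. Chil3, a chitinase-like protein, followed Ltf more than Mmp9, at 233 FPKM in T618I, 1028 in T618I/Q741 and 765 in T618I/W791 cells, against 282 in W791, 322 in Q741 and 248 in vector cells. Haptoglobin (Hp) and the NADPH oxidase subunit genes Cybb and Cyba, also of specific granules, stayed within 2-fold in all 3 of these pairs.

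Primary granule genes, of the earlier granules, had medians close to 0. Of 10 tested, limma called 0 between the mutant classes and 0 in the 3 against 3 comparison, with medians of 0.12 and 0.16. At an unadjusted p below 0.05, 1 was higher and 2 lower in each. Of tested genes, 4.16% were higher and 4.86% lower between the classes, and 6.08% and 9.80% in the 3 against 3 comparison. Elane, neutrophil elastase, was the single one to reach 2-fold on adding T618I to Q741, at 714 FPKM in T618I/Q741 cells, against 275 in Q741 cells. Summed FPKM of the 10 primary granule genes ran from 3282 to 3806 in T618I-containing libraries and from 2995 to 3713 in the others. Among membrane genes of late neutrophils, 9 of the 10 listed were tested. In the 3 against 3 comparison all 9 were above 0, with a median of 1.07 (all tested genes, -0.08). The chemotactic receptor gene Fpr1 alone rose there (2.68 ± 0.24, limma adjusted p = 0.00749, 0.670% of tested genes called higher). At an unadjusted p below 0.05, 8 were higher (6.08% of tested genes). Between the mutant classes 0 of 9 were called (0.179% of tested genes higher), with Fpr1 at 2.55 ± 0.27 (limma adjusted p = 0.0583). There 7 were higher at an unadjusted p below 0.05 (4.16% of tested genes). The chemokine receptor gene Cxcr2 was at 50.9 FPKM in T618I, 102 in T618I/Q741 and 29.3 in T618I/W791 cells, against 10.6 in W791, 9.36 in Q741 and 11.5 in vector cells. Like Retnlg, it was lower with T618I/W791 than with T618I.

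Of 8 transcription factors of granule genes, Cebpe alone rose in the 3 against 3 comparison (1.55 ± 0.20, limma adjusted p = 0.0310, 0.670% of tested genes called higher). Between the mutant classes 0 of 8 were called, and 2 were higher at an unadjusted p below 0.05 (4.16% of tested genes). Cebpe was at 18.2 FPKM in T618I, 31.0 in T618I/Q741 and 24.0 in T618I/W791 cells, against 8.34 in W791, 7.86 in Q741 and 6.42 in vector cells. Its order over the T618I-containing libraries was that of the members Ltf, Ngp, Camp, Lcn2, Cd177, Mmp9 and Mmp25. With T618I, Cebpe was above all libraries without T618I, as were Ngp, Lcn2, Cd177, Mmp9 and Mmp25, whereas Ltf and Camp were below them. Cebpb was at 72.8 FPKM in T618I, 170 in T618I/Q741 and 76.2 in T618I/W791 cells, against 78.6 in W791, 87.1 in Q741 and 66.8 in vector cells, so that T618I/Q741 alone stood apart, as for Fcnb.

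Markers of other cells moved between the same libraries. The 8 mast cell and basophil markers summed to 2097 FPKM in T618I, 743 in T618I/Q741 and 611 in T618I/W791 cells, against 2089 in W791, 1874 in Q741 and 2222 in vector cells. The 10 monocyte and macrophage markers in the table summed to 1204 FPKM in T618I, 1316 in T618I/Q741 and 488 in T618I/W791 cells, against 1269 in W791, 1322 in Q741 and 1211 in vector cells. The double mutants, where Ltf, Ngp and Camp were above T618I, thus had low sums for mast cell and basophil markers. T618I/W791 also had a low sum for monocyte markers. Single mast cell and basophil markers differed from their sum, as 2 of 8 were higher in T618I/Q741 than in Q741 cells. These were Tpsb2 (120 against 64.2 FPKM) and Cma1 (96.7 against 57.9). Between T618I/W791 and W791, 0 of 8 were higher. Similar sums in T618I and vector cells hid opposite moves. With T618I, 3 of 8 were above vector (38.3% of tested genes), among them Cpa3 (959 against 684 FPKM). Prss34 was 2-fold lower (78.7 against 393 FPKM, 1.27% of tested genes). Of 10 monocyte markers, 5 were above vector with T618I and 2 were 2-fold lower. The latter were Irf8 (32.5 against 83.3 FPKM) and Ly86 (11.1 against 48.2). The 9 erythroid markers summed to 187 FPKM in T618I, 219 in T618I/Q741 and 1061 in T618I/W791 cells, against 19.1 in W791, 10.99 in Q741 and 16.5 in vector cells. The 7 megakaryocyte markers summed to 2786 FPKM in T618I, 1573 in T618I/Q741 and 1529 in T618I/W791 cells, against 1017 in W791, 359 in Q741 and 789 in vector cells. The 6 eosinophil markers in the table summed to 32.3 to 46.8 FPKM in T618I-containing libraries and to 65.1 to 84.7 in the others. In the 3 against 3 comparison limma called 3 of 8 tested erythroid markers higher (0.670% of tested genes) and 1 of 5 tested eosinophil markers lower (0.197%). It called 0 of 10 monocyte, 0 of 8 mast cell and 0 of 7 megakaryocyte markers. Of these, 4 monocyte and 3 mast cell markers were lower (9.80% of tested genes) and 5 megakaryocyte markers higher (6.08%) at an unadjusted p below 0.05. Between the mutant classes limma called 0 of the markers in these 5 lists, erythroid ones included (0.179% of tested genes higher and 0.0179% lower). None of these markers was at 0 in any library, and their part in the granule gene values was not tested.

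**Figure D5:**
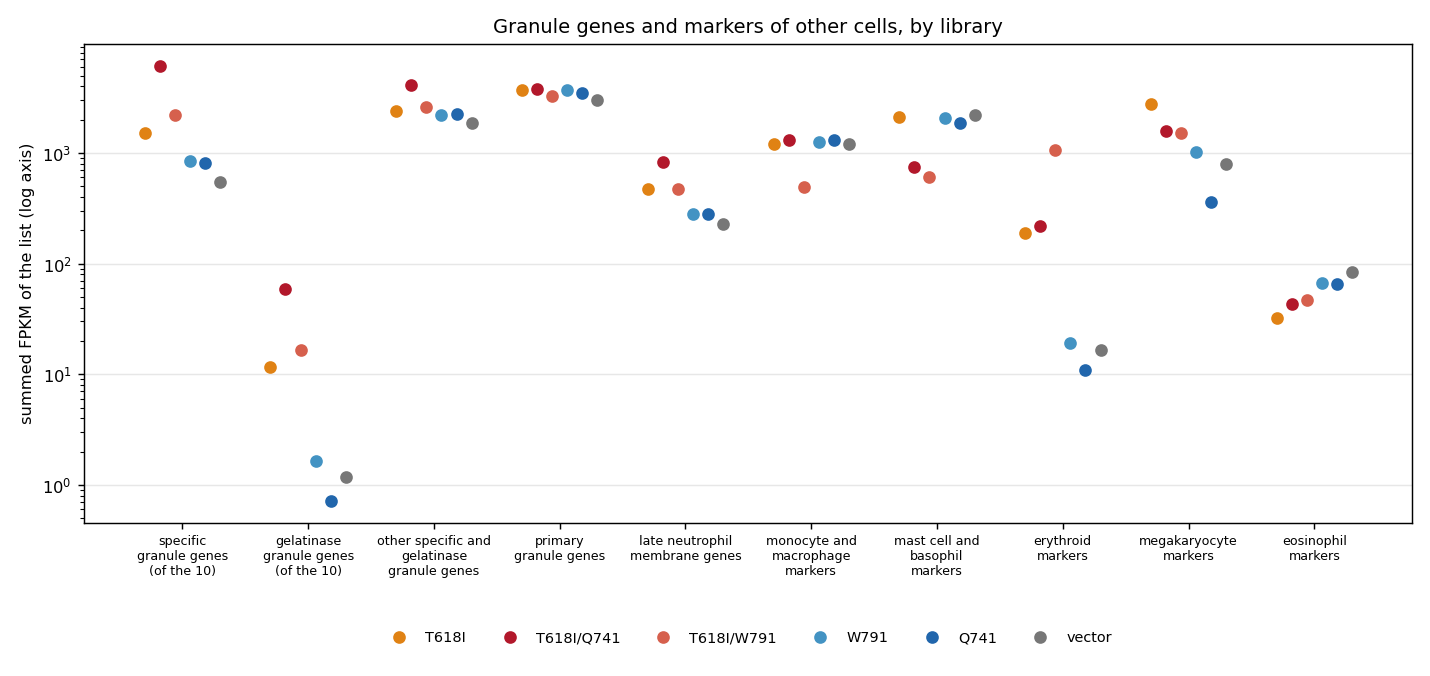
Summed FPKM (log axis) of the specific and gelatinase members and of the other gene lists, 1 point per library. Specific granule genes reach 6140 FPKM in T618I/Q741 cells, against 812 in Q741 cells, while primary granule genes stay between 2995 and 3806 in all libraries.

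The genes most like Ltf and Mmp9 over the 6 libraries were picked by Pearson correlation of log2(FPKM + 1) among 395 genes with 5 FPKM or more in some library and a range of at least 2. For Ltf these included Il1rn (0.98), Ngp (0.98), Nov (0.96) and Chil3 (0.95). For Mmp9 they were Gstt1 (0.999), Kcnn3 (0.996), Pglyrp1 (0.995), Itgb2l (0.994) and Il1r2 (0.992). Among the members, Lcn2, Cd177, Mmp9 and Retnlg followed each other with correlations of 0.97 to 0.99, whereas Camp correlated with these 4 at 0.41 to 0.51. Only 6 points that share their libraries stand behind each value, so these are descriptions.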

How the data were processed

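The authors deposited 1 table, with 1 row per gene symbol and 1 column per construct. Its header gives no unit; the values deposited were taken as FPKM because the submitters' processing notes name TopHat, Cufflinks and mm10 and the columns hold decimals that sum to neither counts nor TPM. The sources used here give no versions, annotation or use of strand. Of 23444 rows, 27 whose symbol had become a date were left out. Limma 3.58.1 in R 4.3.3 was fitted to log2(FPKM + 1) of 11188 genes that reached 1 FPKM in 2 or more libraries, with a mean-variance trend. The class fit had 3 group means (3 residual degrees of freedom) and the T618I present against absent fit had 2 (4 residual degrees of freedom). P-values were adjusted by Benjamini-Hochberg over all tested genes, with a threshold of 0.05. The single vector library was taken to vary as the others do. The fits were tested on simulated data. Single libraries were compared at 2-fold without a test. The double-mutant columns, headed QT and TW, were matched to titles by their letters. Fragment numbers were approximated from low values of 3719 genes with 1 transcript in GENCODE M21. The text names all 10 members, genes of the fixed lists and the 5 genes most like Ltf and Mmp9, of which 1 is not reported here. Members, lists and tests were chosen with earlier results of these data known.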

Additional observations from a re-analysis of the deposited data

Results flagged for a closer look

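For 6 results a difference went opposite ways in 2 single pairs of libraries, so the contrast between pairs was not tested. The changes compared are not the same. T618I over vector also adds the introduced receptor, and Q741 and W791 are different truncations. Adding T618I gave Camp a log2 difference of -1.04 over vector but 2.42 over Q741. For Ltf it gave -0.05 over vector and 3.43 over Q741; with median-ratio scaling the first value was 0.01. For Fcnb it gave -0.18 over W791 and 1.03 over Q741. Adding a truncation to T618I gave Retnlg -0.75 with W791 and 2.04 with Q741, Mmp8 -0.03 with W791 and 1.23 with Q741, and Fcnb -0.04 with W791 and 1.14 with Q741. The negative values other than those of Camp and Retnlg are close to 0, and replicates that could give their error were not part of the series as analysed here.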

How the results depend on the processing

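Class comparison (20 genes higher, 2 lower, 0 granule genes): without the filter on low values 3 genes were higher; with the tail as a block 83 were higher and 36 lower, and 2 granule genes were higher. Leaving out single libraries gave 2 to 30 genes higher, 0 to 5 lower and 0 to 1 granule genes higher. Comparison of T618I present with absent (75 higher, 22 lower, 4 granule genes): without the filter 41 were higher and 1 granule gene (Lcn2); at a filter of 5 FPKM 11 were lower; with a pseudocount of 5, 2 granule genes were higher; with the tail as a block 36 were lower and 2 granule genes higher. Leaving out single libraries gave 20 to 121 higher, 2 to 63 lower and 0 to 4 granule genes higher. With single libraries left out, the log2 difference of Camp ran from -0.69 to 1.09 in the class comparison and from -0.59 to 1.19 in the other, and that of Fcnb from -0.15 to 0.44 and from -0.052 to 0.54; the values below 0 are those without T618I/Q741. Camp was no longer 2-fold lower with T618I than with vector (0 genes) with a pseudocount of 5 or median-ratio scaling, and 1 member was 2-fold higher with W791 than with vector at a pseudocount of 0.1. Other numbers of genes enter the filter settings and fewer libraries the left-out-library settings; the cause of the other shifts was not tested. The block fit pairs all 6 libraries by tail, vector with T618I included. It is 1 fit of T618I present against absent, given under both comparisons, and does not compare the mutant classes. No paired analysis by replicate number was possible because the labels carry none. Low values of Retnlg and Mmp9 without T618I rest on few fragments (Retnlg about 1.18 in Q741, Mmp9 about 18.4), which limits their folds.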

Other observations

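Most other chromosome 9 genes between Camp and Ltf (109847379 to 111042767) stayed within 2-fold. Of 14 other tested genes there, 1 was 2-fold higher with T618I/Q741 than with Q741 (Als2cl, chosen after its values were seen) and 0 were lower, with a median log2 difference of -0.21, against -0.16 over all tested genes. With T618I over vector and with T618I/W791 over W791, 0 of 14 passed 2-fold in either direction. Between T618I/Q741 and T618I/W791, 1 was higher (Als2cl) and 2 were lower, with a median of -0.02.

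Ngp and Camp, related granule proteins, did not keep a fixed ratio. Ngp stood at 58.9 times the Camp level with T618I, 49.4 times with T618I/Q741 and 58.8 times with T618I/W791, against 17.0 times with W791, 19.6 times with Q741 and 15.4 times with vector. The ratio was thus similar in the T618I-containing libraries although Camp was lowest with T618I and highest with T618I/Q741. Lcn2 stood at 27.0 times the Ltf level with T618I, 4.19 times with T618I/Q741 and 8.21 times with T618I/W791, against 3.54 times with W791, 4.91 times with Q741 and 4.49 times with vector. For this ratio T618I stood apart and T618I/Q741 lay among the libraries without T618I.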
